A study of Mus musculus with 5 samples.

Results

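The proteasome subunit genes of mouse regulatory T cells (Tregs) were described in 5 RNA sequencing libraries. Members were the protein-coding genes whose symbol starts with Psma, Psmb, Psmc, Psmd, Psme, Psmf or Psmg followed by a digit, and 50 of 49927 gene IDs met this rule. By known role they comprised 7 alpha-ring and 7 constitutive beta-ring genes of the 20S core, 3 immunoproteasome genes, 17 genes of the 19S regulatory particle, 7 assembly chaperones, 5 activator genes, 1 inhibitor, the testis subunit Psma8 and the thymus subunit Psmb11. The remaining member, Psmc3ip, met the rule by its name alone, since it encodes a meiotic recombination factor that is not a subunit.

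The study set Tregs of adipose tissue beside those of lymph nodes in C57BL/6 mice, and 1 library stood for each group. The groups were adipose Tregs of 10-month Med23fl/fl;Foxp3Cre mice (the library labelled Med23 KO), adipose Tregs of 10-month Foxp3Cre mice, adipose Tregs of 4-month obese Foxp3Cre mice (HFD in the title), adipose Tregs of 4-month Foxp3Cre mice whose labels name no obesity (called lean here), and lymph node (LN) Tregs of 4-month Foxp3Cre mice. All groups therefore carried Foxp3Cre, a Cre recombinase driven by the Foxp3 gene, which limits recombination to cells that use that gene. The sorting gate and the number of mice behind a library were not given in the sources used here.

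The proteasome is the protease that degrades ubiquitin-tagged proteins. Its barrel, the 20S core, holds the catalytic sites in its beta rings, and the 19S particle caps the barrel, binds ubiquitin chains, removes them and unfolds the substrate with a ring of ATPases. In cells of the immune system, and in other cells after interferon gamma, Psmb8, Psmb9 and Psmb10 replace the catalytic subunits Psmb5, Psmb6 and Psmb7 in newly built cores, and these immunoproteasomes cut peptides that suit presentation on MHC class I. The PA28 alpha and beta ring of Psme1 and Psme2 is another cap induced by interferon gamma.

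Listed reads per library ranged from 4595046 in the library labelled Med23 KO to 9694474 in LN Tregs. Levels are given as CPM, the authors' scaled read counts rescaled to 1000000 per library, and comparisons within a deposited table use the authors' scaled counts. Values under 1 scaled count are listed as 0. With 1 library per group there was no test between conditions. Ranges in parentheses are 95% intervals that cover counting error only. Med23 went against its label, with 15.45 CPM in the library labelled Med23 KO against 6.32 CPM in 10-month Foxp3Cre Tregs. That value covers the whole gene, and the floxed exons were not given in the sources used here. The female marker Xist ranged from 228.0 to 602.0 CPM in both 10-month libraries and LN Tregs and from 0 to 3.60 CPM in the 4-month adipose libraries, where the Y-linked Ddx3y was at 559.7 to 561.7 CPM against 0 elsewhere. Gapdh, a glycolysis gene of all cells, was at 10.7 CPM in obese and 1.05 CPM in lean Tregs against 547.8 to 979.4 CPM in the other libraries. All 7 T cell markers were above 0 in every library. Their sum was 4465 CPM in the library labelled Med23 KO and 6525 CPM in 10-month Foxp3Cre Tregs. It was 3504 CPM in obese, 4065 CPM in lean and 6342 CPM in LN Tregs. Foxp3, which is among these markers, was at 155.2 to 216.1 CPM in adipose and 52.5 CPM in LN Tregs. The part of the T cell sums in the member values was not tested. Tissue, sex markers and the near-absence of Gapdh cannot be told apart in obese or lean against LN Tregs.

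Promoter sequences are shown for both members of 2 subunit exchanges, since the ratio of immunoproteasome to constitutive genes is described in most detail. RefSeq (GRCm38.p6) held promoters of 41 of the 49 members other than Psmc3ip, from 250 bases before to 50 after the start, and Psma8, Psmb1, Psmb2, Psmb7, Psmc3, Psmd3, Psmd7 and Psmg2 had none. The 150 bases before the start follow, 5′ to 3′ along the gene. Capitals mark matches on either strand to TGACNNNGC (the core of the antioxidant response element, bound by the Nfe2l1 and Nfe2l2 factors), GAAA, any 2 bases and GAAA (the core of the interferon-stimulated response element) or TTCNNNGAA (the gamma-activated site, which reads the same on both strands).
Psmb8 (chr17:34198045-34198194, + strand): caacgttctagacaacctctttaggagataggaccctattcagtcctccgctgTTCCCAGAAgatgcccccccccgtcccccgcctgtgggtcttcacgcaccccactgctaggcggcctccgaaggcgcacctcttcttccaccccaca
Psmb5 (chr14:54617996-54618145, - strand): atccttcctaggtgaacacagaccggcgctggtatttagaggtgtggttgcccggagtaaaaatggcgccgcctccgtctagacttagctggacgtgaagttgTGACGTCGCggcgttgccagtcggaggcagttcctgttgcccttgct
Psmb9 (chr17:34187331-34187480, - strand): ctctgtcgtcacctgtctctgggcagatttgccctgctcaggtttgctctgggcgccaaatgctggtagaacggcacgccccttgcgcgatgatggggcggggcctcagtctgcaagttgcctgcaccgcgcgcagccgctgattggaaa
Psmb6 (chr11:70525207-70525356, + strand): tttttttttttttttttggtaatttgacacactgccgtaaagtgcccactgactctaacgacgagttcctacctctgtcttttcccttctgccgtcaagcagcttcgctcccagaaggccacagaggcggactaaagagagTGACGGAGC
The matches shown are 1 TTCNNNGAA in Psmb8, none in Psmb9, and 1 TGACNNNGC in each of Psmb5 and Psmb6. In the whole windows TGACNNNGC was in 6 of 41 member genes (14.6%) and in 14.8% of 17492 protein-coding genes, a share near that of all genes. The interferon core was in 5 member genes (12.2%, being Psme1, Psmb3, Psmd4, Psmd9 and Psmg4) and in 3.94% of all, and TTCNNNGAA in 3 (7.32%, being Psmb8, Psmd2 and Psmg1) and in 8.92% of all. Of 6 immunoproteasome and PA28 alpha and beta genes with a promoter, 1 held the interferon core and 1 held TTCNNNGAA. Psmd9 alone held 2 of the 3 motifs, and its matches did not overlap. A match is a description of letters only.

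LN Tregs gave the proteasome the largest share of their RNA of the 5 libraries. The 50 members took 0.492% of listed reads in the library labelled Med23 KO, 0.685% in 10-month Foxp3Cre, 0.647% in obese, 0.608% in lean and 1.31% in LN Tregs. In bulk libraries fewer cells of a kind and less RNA per cell cannot be told apart. Of the 49 members listed above 0 somewhere, LN Tregs had the highest CPM for 34, and the library labelled Med23 KO alone had the lowest for 23, with Psma8 and Psmg1 at 0 there and elsewhere too. The same counts were not made over all genes, so both stand without a background. The library labelled Med23 KO also had the fewest reads of the 5. Psmb11, the catalytic subunit of the thymic cortex, was listed at 0 in every library, and the testis subunit Psma8 was above 0 in LN Tregs alone, at 7.43 CPM.

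**Figure D1:**
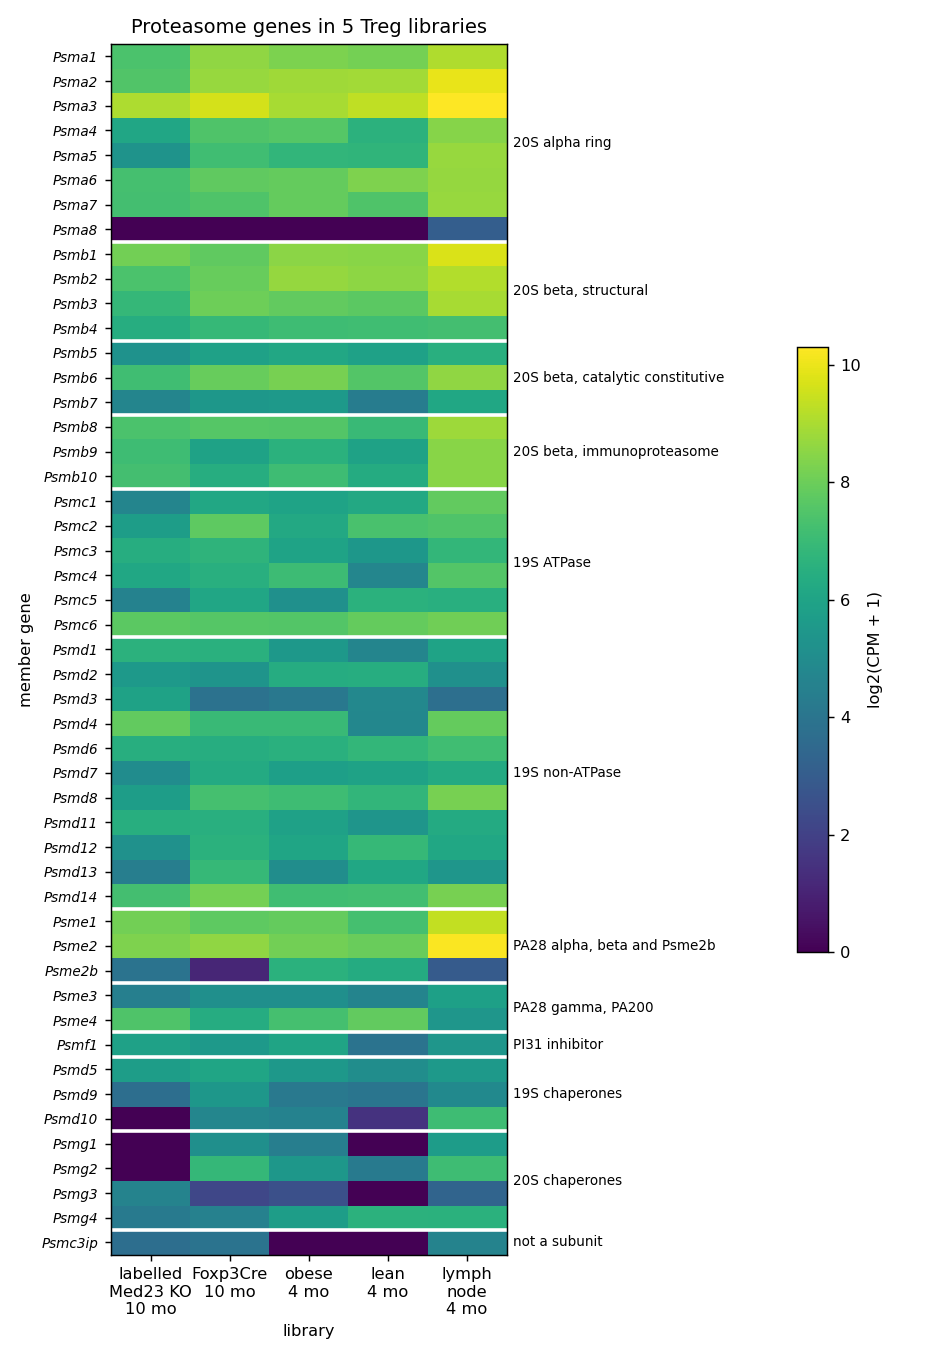
Level of 49 member genes as log2(CPM + 1), 1 column per library and 1 row per gene, grouped by role; Psmb11, at 0 throughout, is left out. The LN column holds the highest level in 34 of the 49 rows, a count not made over all genes. Among the assembly chaperones, Psmd10, Psmg1, Psmg2 and Psmg3 are each at 0 in some library and above 0 in others.

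The excess in LN Tregs ran through most structural groups. The 14 constitutive 20S genes summed to 2127 CPM in the library labelled Med23 KO, 3499 in 10-month Foxp3Cre, 3578 in obese, 3439 in lean and 7008 in LN Tregs. The 17 genes of the 19S particle summed to 1355, 1916, 1410 and 1457 CPM in the same adipose libraries and to 2401 CPM in LN Tregs. LN Tregs were thus above each adipose library for both sums, and the library labelled Med23 KO was the lowest. Per kilobase of annotated exon, the median alpha-ring gene stood at 49.95 CPM per kb in the library labelled Med23 KO, 115.0 in 10-month Foxp3Cre, 104.1 in obese, 97.6 in lean and 271.5 in LN Tregs. The median 19S ATPase gene was lower in each library, at 24.0, 41.8, 28.7 and 35.0 CPM per kb in those adipose libraries and 70.8 CPM per kb in LN Tregs. Psmb2, a structural beta subunit, was the highest structural beta gene per kilobase in every library, from 138.3 CPM per kb in the library labelled Med23 KO to 462.3 CPM per kb in LN Tregs.

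The immunoproteasome genes were at their highest in LN Tregs. Psmb8 (ENSMUSG00000024338), which takes the place of the chymotrypsin-like subunit Psmb5, had 169.1 CPM in the library labelled Med23 KO, 191.1 in 10-month Foxp3Cre, 184.2 in obese, 124.7 in lean and 447.5 in LN Tregs. Psmb9 (ENSMUSG00000096727), which takes the place of the caspase-like subunit Psmb6, had 136.2, 59.7, 95.6 and 61.0 CPM in those adipose libraries and 353.1 CPM in LN Tregs. Psmb10 (ENSMUSG00000031897), which takes the place of the trypsin-like subunit Psmb7, had 148.2, 84.2, 137.1 and 79.2 CPM in those adipose libraries and 355.5 CPM in LN Tregs. Each of the 3 genes was higher in LN Tregs than in any adipose library, and among adipose libraries Psmb9 and Psmb10 were highest in the library labelled Med23 KO.

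Over all libraries, each constitutive partner spread less than the immunoproteasome gene that replaces it. Among the adipose libraries alone, Psmb5 and Psmb7 spread more than Psmb8 and Psmb10. Psmb5 (ENSMUSG00000022193) had 37.7 CPM in the library labelled Med23 KO, 58.0 in 10-month Foxp3Cre, 72.0 in obese, 58.5 in lean and 90.7 in LN Tregs. Psmb6 (ENSMUSG00000018286) had 140.6, 239.8, 296.4 and 188.9 CPM in those adipose libraries and 389.2 CPM in LN Tregs. Psmb7 (ENSMUSG00000026750) had 24.6, 42.8, 46.6 and 18.9 CPM in those adipose libraries and 70.5 CPM in LN Tregs. The library labelled Med23 KO was the lowest for Psmb5 and Psmb6, while lean Tregs were the lowest for Psmb7. Exons of Psmb9 overlap Tap1 and those of Psmb7 overlap Nek6, and reads of these pairs cannot be told apart where counting ignores strand, a setting not given in the sources used here. Tap1, the peptide transporter of MHC class I loading, had 330.6 CPM in the library labelled Med23 KO, 85.6 in 10-month Foxp3Cre, 137.4 in obese, 119.3 in lean and 75.1 in LN Tregs. The 4 adipose libraries stood in the same order for Tap1 and Psmb9, while LN Tregs were the lowest for Tap1 and the highest for Psmb9. The part of shared reads in the Psmb9 values was not tested.

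Set against each other within a library, which needs no scaling between libraries, the reads of the 3 immunoproteasome genes over those of the 3 constitutive catalytic genes gave a ratio of 2.24 (2.07 to 2.42) in the library labelled Med23 KO. The ratio was 0.984 (0.937 to 1.03) in 10-month Foxp3Cre, 1.01 (0.956 to 1.06) in obese and 0.995 (0.938 to 1.06) in lean Tregs, against 2.10 (2.03 to 2.17) in LN Tregs. The other 3 adipose libraries thus lay together near 1 and below both others, and the library labelled Med23 KO lay beside LN Tregs, with overlapping counting intervals. These are read ratios, so they hold the lengths of the genes. Psmb5 has a processed pseudogene at 98.9% identity over 796 bases, and Psmb6 has one at 96.2% over 265 bases. The summed ratio was not recomputed without these genes.

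The pairs differed in how they made up this pattern. Psmb9 over Psmb6 was 0.969 (0.867 to 1.08) in the library labelled Med23 KO, 0.249 (0.227 to 0.273) in 10-month Foxp3Cre, 0.323 (0.296 to 0.351) in obese, 0.323 (0.292 to 0.357) in lean and 0.907 (0.866 to 0.95) in LN Tregs. Psmb8 over Psmb5 was 4.49 (3.80 to 5.33) in the library labelled Med23 KO, 3.29 (2.99 to 3.63) in 10-month Foxp3Cre, 2.56 (2.31 to 2.83) in obese, 2.13 (1.91 to 2.37) in lean and 4.94 (4.59 to 5.31) in LN Tregs. Psmb10 over Psmb7 was 6.03 (4.93 to 7.42) in the library labelled Med23 KO, 1.97 (1.75 to 2.22) in 10-month Foxp3Cre, 2.95 (2.61 to 3.34) in obese, 4.20 (3.53 to 5.02) in lean and 5.05 (4.65 to 5.49) in LN Tregs. The library labelled Med23 KO and LN Tregs had the highest ratios for each pair, but the 3 other libraries did not keep 1 order. For Psmb10 over Psmb7 the interval of lean Tregs overlapped those of both LN Tregs and the library labelled Med23 KO.

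**Figure D2:**
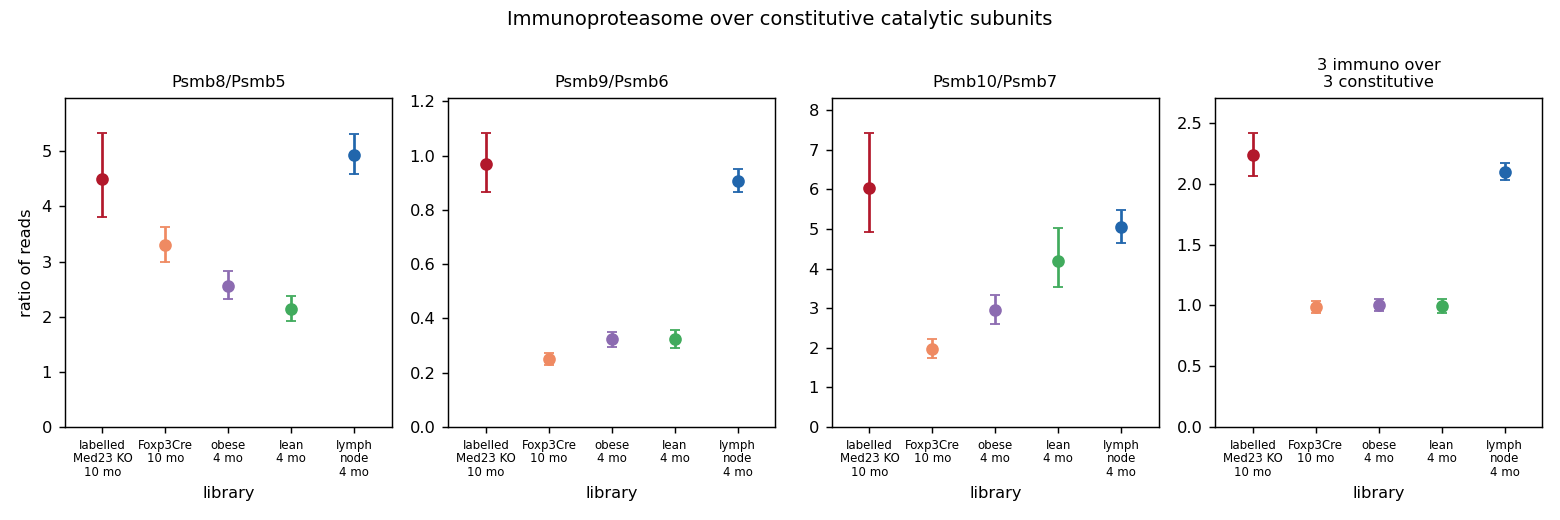
Ratio of reads of each immunoproteasome gene to its constitutive partner, and of the sums of 3 (vertical axes from 0, 1 point per library), with 95% counting intervals as bars. In the panel of sums the library labelled Med23 KO and LN Tregs sit at 2.24 and 2.10 and the other 3 libraries between 0.984 and 1.01.

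Lean adipose against LN Tregs asked how Tregs of fat differ from those of lymphoid tissue. Of 49 measured members, 3 were 2-fold or more above LN Tregs in lean Tregs (6.12%, against 37.6% of all measured genes) and 32 were lower by as much (65.3%, against 32.1%). Among genes with a mean of 20 scaled counts or more, 3 of 45 members were higher (6.67%, against 27.1%) and 29 lower (64.4%, against 27.1%). The median log2 ratio of members was -1.34, against 0.14 for all measured genes. The lower members were 10 of 14 constitutive 20S genes (median -1.21), 8 of 17 genes of the 19S particle (median -0.53, with 1 higher) and all 5 of Psmb8, Psmb9, Psmb10, Psme1 and Psme2 (median -2.29), together with 9 others. Rescaled to the same column sums, lean over LN ratios shift up by 0.14 and obese over LN ratios by 0.17 on the log2 scale. In lean over LN Tregs 27 of 49 members were then lower (55.1%, against 30.3% of all genes) and 4 higher (8.16%, against 39.5%). In obese over LN Tregs 20 of 49 were then lower (40.8%, against 21.2%) and 3 higher (6.12%, against 43.8%).

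Among lower members with reads on both sides, the largest differences were in assembly chaperones and 19S subunits. Psmd10, the 19S assembly chaperone also called gankyrin, had 1.78 scaled counts in lean and 144.8 in LN Tregs, 81.2-fold lower (49.8 to 142.5). Psmd4, a ubiquitin receptor of the 19S particle, had 25.3 in lean and 242.4 in LN Tregs, 9.59-fold lower (8.36 to 11.04). Psmg2, a chaperone that pairs alpha subunits, had 17.04 in lean and 144.0 in LN Tregs, 8.45-fold lower (7.14 to 10.1). All 3 of these genes were far higher in LN Tregs. Psmc4, a 19S ATPase, was 7.89-fold lower (6.86 to 9.12), with 24.5 scaled counts in lean and 193.4 in LN Tregs. Psmb9 was 6.39-fold lower (5.82 to 7.02), with 58.0 in lean and 370.6 in LN Tregs, while its partner Psmb6 was 2.27-fold lower (2.14 to 2.41), with 179.7 in lean and 408.5 in LN Tregs. The immunoproteasome to constitutive ratio was therefore lower in lean Tregs by 1.08 on the log2 scale (log2 shift -1.08, from -1.17 to -0.98).

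The 3 higher members were Psme2b, Psme4 and Psmd2. Psme4, which encodes the PA200 activator, had 218.0 scaled counts in lean and 44.2 in LN Tregs, 4.93-fold higher (4.43 to 5.50). Psmd2, a scaffold subunit of the 19S base, had 81.3 in lean and 36.8 in LN Tregs, 2.21-fold higher (1.94 to 2.52). Psme2b, a near-copy of the PA28 beta gene, had 75.5 in lean and 7.04 in LN Tregs, 10.7-fold higher (8.31 to 14.1). Psmd2 has a copy at 97.0% identity and Psme2b one at 99.4%, and without the 10 members that have such a copy 1 of 39 members was higher.

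Obese adipose against LN Tregs gave lower values again, in a comparison that shares the LN library. Of 49 measured members, 3 were 2-fold or more above LN Tregs in obese Tregs (6.12%, against 41.8% of all measured genes) and 25 were lower by as much (51.0%, against 23.7%). The median log2 ratio was -1.01 against 0.44 for all genes. Among genes with a mean of 20 scaled counts or more, 3 of 45 members were higher (6.67%, against 23.4%) and 23 lower (51.1%, against 25.0%). The higher members were again Psmd2, Psme2b and Psme4, and 1 of 39 was higher without the members that have a near-identical copy. Lower were 7 of 14 constitutive 20S genes (median -1.0), 7 of 17 genes of the 19S particle (median -0.73, with 1 higher) and all 5 immunoproteasome and PA28 alpha and beta genes (median -1.67). Psma1 at -0.97 and Psma6 at -0.99, both alpha-ring subunits, lay just inside 2-fold. Psma5, an alpha-ring subunit, had 103.3 scaled counts in obese and 443.5 in LN Tregs, 4.30-fold lower (3.98 to 4.64). Psmc1, an ATPase of the 19S base, had 58.5 in obese and 244.1 in LN Tregs, 4.17-fold lower (3.77 to 4.62). Both genes have processed pseudogenes, at 98.6% identity for Psma5 and 95.6% for Psmc1. Psmb9 was 4.16-fold lower (3.83 to 4.51), with 90.1 in obese and 374.3 in LN Tregs. Psmb8 was 2.73-fold lower (2.57 to 2.91), with 173.5 in obese and 474.3 in LN Tregs.

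The constitutive catalytic genes differed less from LN Tregs in the obese library. Psmb6 had 279.1 scaled counts in obese and 412.5 in LN Tregs, 1.48-fold lower (1.40 to 1.56), and none of Psmb5, Psmb6 and Psmb7 reached 2-fold. The immunoproteasome ratio shifted by -1.06 on the log2 scale (-1.15 to -0.98) against these 3 genes, and by -0.50 (-0.56 to -0.44) against all 14 constitutive 20S genes. The macrophage markers differed too, with 12 of 12 above 0 and a sum of 4936 CPM in obese Tregs, against 1 of 12 and 7.01 CPM in LN Tregs; their part in the member values was not tested. In lean Tregs 10 of 12 macrophage markers were above 0 (sum 891.3 CPM, with Fcgr1 and Mertk at 0), and 6 of 9 fibroblast and mesothelial markers (sum 981.7 CPM) against 1 of 9 (8.56 CPM) in LN Tregs.

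The 10-month Foxp3Cre library carries the same sex marker, Xist, as LN Tregs and has Gapdh at 639.0 CPM. In CPM, 1 of 49 measured members was 2-fold or more above LN Tregs (2.04%, against 34.7% of all genes) and 17 were lower by as much (34.7%, against 29.0%). Among genes with a mean of 20 CPM or more, 1 of 44 members was higher (2.27%, against 23.3%) and 14 lower (31.8%, against 24.5%). The share of lower members was thus near that of all genes, while the median log2 ratio was -0.71 for members and 0.12 for all genes. The core and the cap differed in their medians. Lower were 5 of 14 constitutive 20S genes (median -0.91), a share of 35.7%, near the 29.0% of all genes. Of the 19S particle, 2 of 17 genes (11.8%) were lower (median -0.03, with 1 higher). All 5 immunoproteasome and PA28 alpha and beta genes were lower (median -1.63). On the same CPM scale, 8 of 14 constitutive 20S genes were lower in lean and 5 of 14 in obese over LN Tregs (medians -1.07 and -0.83). These are 57.1% and 35.7%, against 30.3% of all genes in lean and 21.2% in obese over LN Tregs. Of the 19S particle, 6 of 17 genes were then lower in lean and 5 of 17 in obese over LN Tregs (medians -0.39 and -0.56). These 19S shares, 35.3% and 29.4%, lay nearer to those of all genes than the core shares did. Psmb1, a structural beta subunit, had 220.5 CPM in 10-month Foxp3Cre and 856.9 in LN Tregs, 3.89-fold lower (3.71 to 4.08). Psmd14, the deubiquitinase of the 19S lid, had 287.5 CPM in 10-month Foxp3Cre and 293.6 in LN Tregs, a ratio of 0.980 (0.929 to 1.03). Psmd13, a 19S lid subunit, was the 1 higher member, with 118.6 CPM in 10-month Foxp3Cre and 41.5 in LN Tregs, 2.86-fold higher (2.55 to 3.21); its exons overlap those of Sirt3. Psmb9 was 5.92-fold lower (5.41 to 6.47), and the immunoproteasome ratio shifted by -1.09 on the log2 scale (-1.18 to -1.01). Macrophage markers summed to 658.1 CPM in 10-month Foxp3Cre and 7.01 CPM in LN Tregs, erythroid markers to 1202 CPM in 10-month Foxp3Cre and 0 CPM in LN Tregs, and B cell markers to 7.77 CPM (1 of 6 above 0) in 10-month Foxp3Cre and 107.9 CPM (5 of 6) in LN Tregs; their part in the member values was not tested. Age, table and tissue cannot be told apart here.

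**Figure D3:**
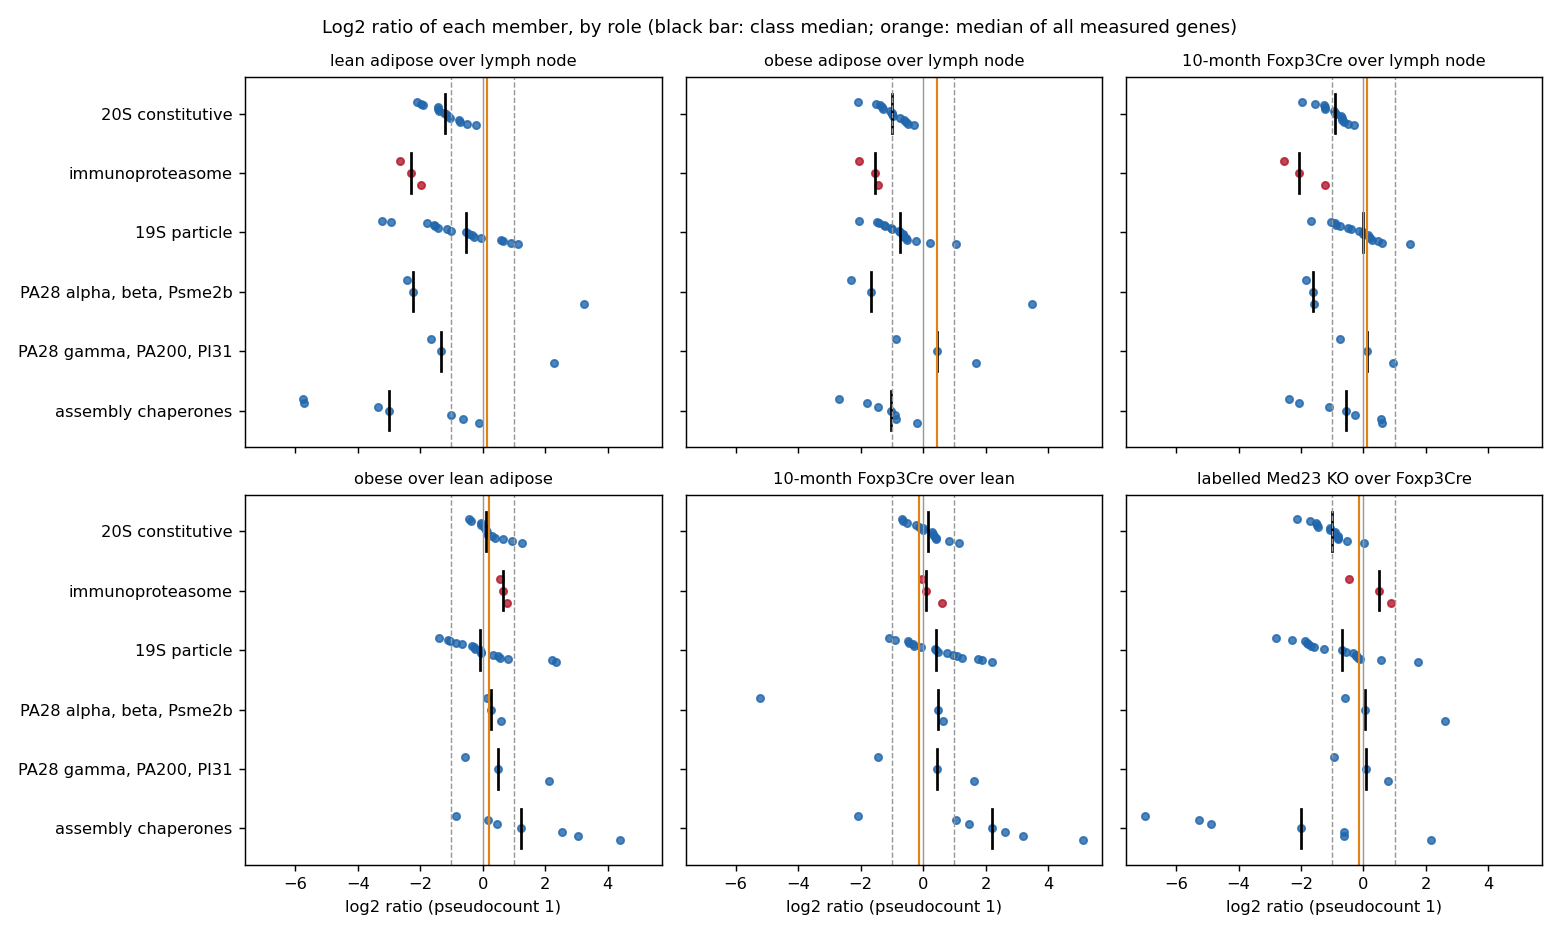
Log2 ratio of each measured member (1 point per gene, pseudocount 1) in 6 comparisons, in rows by role; black bars are class medians, dashed lines mark 2-fold, and the orange line is the median of all measured genes. The panels of lean over lymph node, obese over lymph node and the library labelled Med23 KO are on the deposited scale, and the others are in CPM. In the 3 panels over lymph node the immunoproteasome points lie left of -1, and in the panel of the library labelled Med23 KO they lie at -0.48, 0.51 and 0.88.

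Obese over lean adipose Tregs, in CPM, left the 20S core nearly level. Of 47 measured members, 8 were 2-fold or more above lean Tregs in obese Tregs (against 34.0% of all measured genes), being Psmb7, Psmc4, Psmd4, Psmd10, Psmf1, Psmg1, Psmg2 and Psmg3. Psmc2, Psmc5 and Psmd13 were lower by as much (6.38%, against 18.6%), and the median log2 ratio was 0.17 against 0.20 for all genes. Among genes with a mean of 20 CPM or more, 5 of 43 members were higher (11.6%, against 13.0%) and 3 lower (6.98%, against 12.1%), so the counts were near or below the background. Of 14 constitutive 20S genes, Psmb7 alone was past 2-fold, with 46.6 CPM in obese and 18.9 in lean Tregs, 2.47-fold higher (2.04 to 3.00). Psmc4 had 134.6 CPM in obese and 25.8 in lean Tregs, 5.23-fold higher (4.51 to 6.07), and Psmd4 had 126.5 in obese and 26.6 in lean Tregs, 4.76-fold higher (4.11 to 5.52). The ATPases Psmc5 and Psmc2 went the other way. Psmc5 had 35.1 CPM in obese and 95.2 in lean Tregs, 2.71-fold lower (2.36 to 3.13), and Psmc2 had 73.8 in obese and 160.9 in lean Tregs, 2.18-fold lower (1.97 to 2.41). Genes of the same ATPase ring thus lay on both sides of 2-fold.

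Psmb8, Psmb9 and Psmb10 were 1.48-fold (1.36 to 1.60), 1.57-fold (1.40 to 1.76) and 1.73-fold (1.57 to 1.91) higher in obese than in lean Tregs, each under 2-fold. Their partners Psmb5, Psmb6 and Psmb7 were 1.23-fold (1.09 to 1.39), 1.57-fold (1.47 to 1.67) and 2.47-fold higher, and the summed ratio was level, with a log2 shift of 0.01 (-0.10 to 0.12). Against all 14 constitutive 20S genes the shift was 0.60 (0.52 to 0.68), and as the mean of the 3 pairs it was -0.083 (-0.22 to 0.06), so the value depends on the denominator. Macrophage markers summed to 4936 CPM in obese and 891.3 CPM in lean Tregs, and adipocyte markers to 304.0 and 13.7 CPM. Fibroblast and mesothelial markers summed to 14.7 CPM in obese and 981.7 CPM in lean Tregs. The part of these markers in the member values was not tested.

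10-month Foxp3Cre over 4-month lean Tregs, in CPM, addressed age, which cannot be told apart from the differences in sex markers, in table and in Gapdh (639.0 CPM in 10-month and 1.05 CPM in lean Tregs). Fibroblast and mesothelial markers summed to 48.9 CPM in 10-month Tregs (2 of 9 above 0) and 981.7 CPM in lean Tregs (6 of 9), and their part in the member values was not tested. Of 48 measured members, 14 were 2-fold or more above lean Tregs in 10-month Tregs (29.2%, against 28.8% of all measured genes) and 4 were lower by as much (8.33%, against 32.0%), or 2 without the members that have a near-identical copy. Among genes with a mean of 20 CPM or more, 10 of 44 members were higher (22.7%, against 15.2%) and 4 lower (9.09%, against 21.9%). The median log2 ratio was 0.40 against -0.14 for all genes. The higher members were 6 of 7 assembly chaperones, 5 of 17 genes of the 19S particle, Psmb7, Psmf1 and Psmc3ip. Psmd4 had 126.1 CPM in 10-month and 26.6 in lean Tregs, 4.75-fold higher (4.11 to 5.49). Psmd1, the other scaffold of the 19S base, had 92.95 in 10-month and 24.6 in lean Tregs, 3.78-fold higher (3.25 to 4.41). Psmc4 was 3.47-fold higher (2.99 to 4.04) with 89.4 CPM in 10-month and 25.8 in lean Tregs. These genes had low values in lean Tregs, below those of the other 4 libraries. The 3 immunoproteasome genes stayed under 2-fold, and their ratio to the constitutive partners shifted by -0.02 on the log2 scale (-0.13 to 0.09), by -0.28 (-0.42 to -0.14) as the mean of the 3 pairs and by 0.31 (0.23 to 0.39) against all 14 constitutive 20S genes.

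The library labelled Med23 KO over 10-month Foxp3Cre addressed the Mediator subunit Med23, with the direction resting on the label. Of 48 measured members, 3 were higher by 2-fold or more in the library labelled Med23 KO (6.25%, against 28.6% of all measured genes), being Psmd3, Psme2b and Psmg3, and 19 were lower by as much (39.6%, against 34.9%). The median log2 ratio was -0.81 against -0.15 for all genes. Among genes with a mean of 20 scaled counts or more, 1 of 43 members was higher (2.33%, against 18.4%) and 17 lower (39.5%, against 23.8%). Lower were 7 of 14 constitutive 20S genes (median -0.99) and 8 of 17 genes of the 19S particle (median -0.67, with 1 higher), but 0 of the 5 immunoproteasome and PA28 alpha and beta genes (median 0.04). Rescaling both columns to the same sum shifts each log2 ratio up by 0.30. The medians of these 3 groups were then -0.69, -0.37 and 0.34, with 5, 7 and 0 genes lower and Psmb9 2-fold or more higher. The median of all genes was then 0.15. On that scale 5 members in all were higher (10.4%, against 33.2% of all genes) and 16 lower (33.3%, against 31.3%). The share of lower members was then near that of all genes.

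The core genes differed by up to 4.50-fold. In scaled counts, Psma5 stood at 34.8 in the library labelled Med23 KO against 156.9 in 10-month Foxp3Cre Tregs, 4.50-fold lower (3.85 to 5.30). Psma1 and Psma2, alpha-ring subunits without a near-identical copy, were 2.87-fold lower (2.65 to 3.10) and 2.84-fold lower (2.64 to 3.07). Psmb1 was level, with 248.1 in the library labelled Med23 KO against 244.8 in 10-month Foxp3Cre Tregs. In the cap, Psmd13 had 18.0 in the library labelled Med23 KO against 131.7 in 10-month Foxp3Cre Tregs, 7.32-fold lower (5.91 to 9.15). Psmc2 had 47.2 in the library labelled Med23 KO against 236.0 in 10-month Foxp3Cre Tregs, 5.01-fold lower (4.38 to 5.74). Psmd3, a lid subunit, was higher instead, with 54.0 in the library labelled Med23 KO against 15.5 in 10-month Foxp3Cre Tregs, 3.48-fold higher (2.82 to 4.31).

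Of the 3 immunoproteasome genes, 1 was lower and 2 were higher, each by less than 2-fold. In scaled counts, Psmb9 stood at 122.5 in the library labelled Med23 KO against 66.3 in 10-month Foxp3Cre Tregs, 1.85-fold higher (1.65 to 2.07). Psmb10 had 133.2 in the library labelled Med23 KO against 93.5 in 10-month Foxp3Cre Tregs, 1.43-fold higher (1.29 to 1.58). Psmb8 had 152.0 in the library labelled Med23 KO against 212.1 in 10-month Foxp3Cre Tregs, 1.40-fold lower (1.28 to 1.52). With Psmb6 2.11-fold lower (1.93 to 2.30), Psmb7 2.15-fold lower (1.74 to 2.67) and Psmb5 1.90-fold lower (1.60 to 2.27), the ratio shifted by 1.18 on the log2 scale (1.05 to 1.32), a value that column scaling leaves as it is. As the mean of the 3 pairs it was 1.34 (1.18 to 1.5), and against all 14 constitutive 20S genes 1.16 (1.07 to 1.24). Erythroid markers summed to 8943 CPM in the library labelled Med23 KO (5 of 5 above 0) and 1202 CPM in 10-month Foxp3Cre Tregs (4 of 5, with Alas2 at 0), against 0 in LN Tregs, and macrophage markers to 105.1 CPM (5 of 12 above 0) and 658.1 CPM (9 of 12); the part of either in the member values was not tested.

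**Figure D4:**
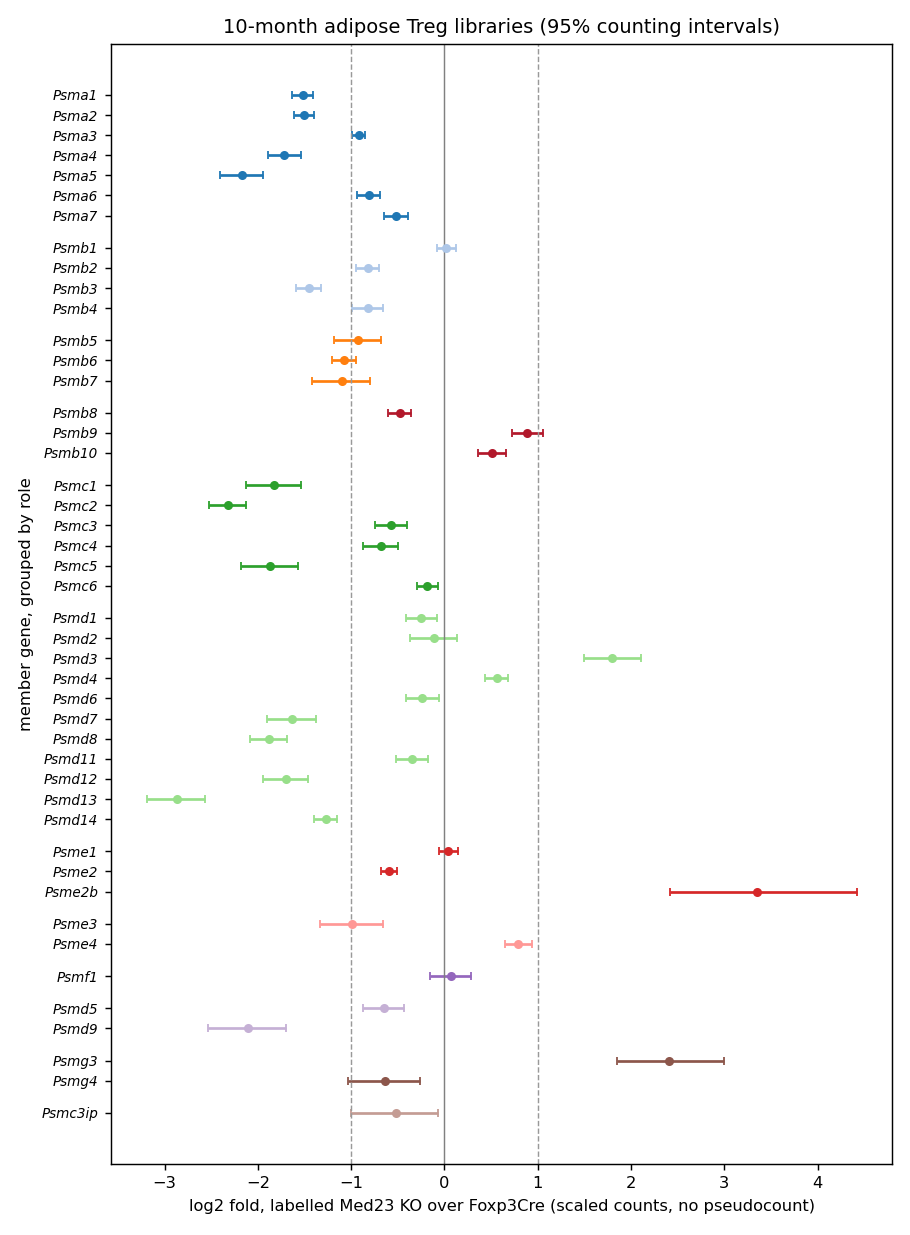
Log2 fold of each member listed above 0 in both 10-month libraries, the library labelled Med23 KO over Foxp3Cre, on the deposited scale with 95% counting intervals; rows are genes grouped by role and dashed lines mark 2-fold. Psmb8, Psmb9 and Psmb10 lie between the dashed lines, to the right of Psmb5, Psmb6 and Psmb7.

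The caps and the inhibitor each had a pattern of their own over the libraries. Psme1, the PA28 alpha gene, had 276.4 CPM in the library labelled Med23 KO, 217.8 in 10-month Foxp3Cre, 232.4 in obese, 154.8 in lean and 661.0 in LN Tregs. Psme2, the PA28 beta gene, had 320.1, 392.4, 275.5 and 250 CPM in those adipose libraries and 1217 CPM in LN Tregs. Both were highest in LN Tregs and lowest in lean Tregs. Psme2b shares 794 bases with Psme2 at 99.4% identity, and it had 14.4 CPM in the library labelled Med23 KO, 1.14 in 10-month Foxp3Cre, 95.1 in obese, 79.4 in lean and 6.71 in LN Tregs. It therefore took 25.7% of the summed reads of the pair in obese and 24.1% in lean Tregs, against 0.290% to 4.29% elsewhere. The rule that divided reads between these genes was not given in the sources used here. The sum of the pair, which may also depend on that rule, stood at 334.5 CPM in the library labelled Med23 KO, 393.5 in 10-month Foxp3Cre, 370.6 in obese, 329.4 in lean and 1223 in LN Tregs. Reads of Psme1 and Psme2 over those of the 14 constitutive 20S genes were 0.280 (0.269 to 0.293), 0.174 (0.170 to 0.179), 0.142 (0.137 to 0.147) and 0.118 (0.114 to 0.122) in those adipose libraries and 0.268 (0.264 to 0.272) in LN Tregs, with the library labelled Med23 KO and LN Tregs the highest.

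Psme4, Psmd2 and Psmd3 were the 3 members with their lowest value in LN Tregs. Psme4 had 176.7 CPM in the library labelled Med23 KO, 82.7 in 10-month Foxp3Cre, 154.7 in obese and 229.1 in lean Tregs and 42.1 CPM in LN Tregs. Psme3, which encodes the nuclear PA28 gamma cap, had its highest value in LN Tregs, at 57.4 CPM. Psmf1, the inhibitor PI31, had 59.0 CPM in the library labelled Med23 KO, 45.6 in 10-month Foxp3Cre, 64.7 in obese, 14.1 in lean and 42.2 in LN Tregs, so that lean Tregs stood apart from the other 4 libraries.

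Several assembly chaperones were at or near the listing limit in single libraries. Psmd10 was listed at 0 in the library labelled Med23 KO and had 25.6 CPM in 10-month Foxp3Cre, 22.9 in obese, 1.87 in lean and 137.9 in LN Tregs. Psmg1 was listed at 0 in lean Tregs as in the library labelled Med23 KO, with 33.9 CPM in 10-month Foxp3Cre, 20.01 in obese and 50.3 in LN Tregs. Psmg2, which forms a pair with Psmg1, was listed at 0 in the library labelled Med23 KO and had 114.4 CPM in 10-month Foxp3Cre, 43.2 in obese, 17.9 in lean and 137.2 in LN Tregs. Both genes of the Psmg1 and Psmg2 pair were thus listed at 0 in the same library, whose smallest listed value stands for 6 reads. Psmg3, of the second chaperone pair, had 23.7 CPM in the library labelled Med23 KO, 3.63 in 10-month Foxp3Cre, 4.80 in obese, 0 in lean and 8.87 in LN Tregs. Its partner Psmg4 had 17.6, 22.3, 52.8 and 96.7 CPM in those adipose libraries and 96.2 CPM in LN Tregs. The pair Psmg3 and Psmg4 did not move together, with Psmg3 highest and Psmg4 lowest in the library labelled Med23 KO.

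**Figure D5:**
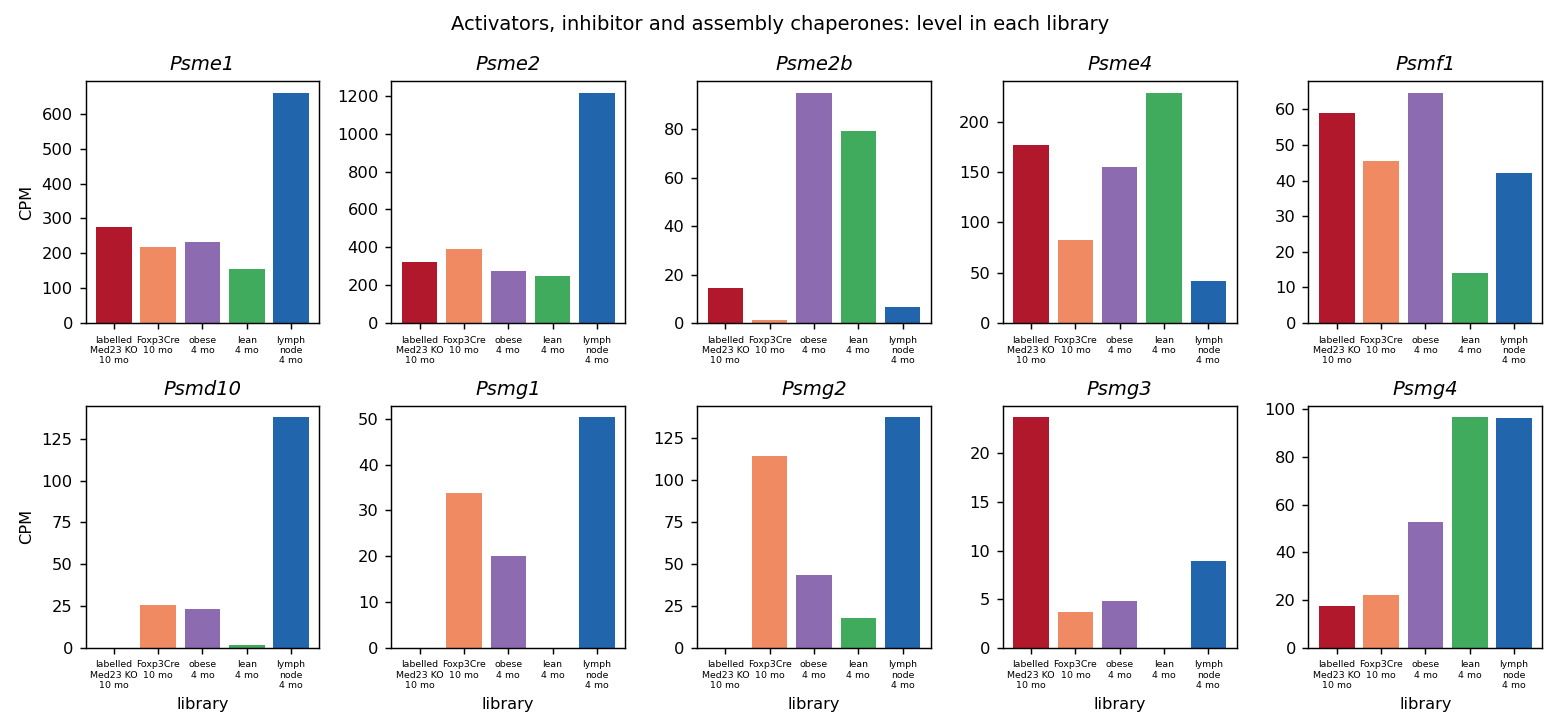
CPM of 10 genes of the caps, the inhibitor and the assembly chaperones (bars from 0, 1 bar per library, each panel with its own scale). Psme1, Psme2, Psmd10, Psmg1 and Psmg2 have their tallest bar in LN Tregs, and Psme4 its shortest.

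Genes that work with the proteasome were counted from 3 lists. Of 16 genes of interferon signalling and MHC class I presentation, 6 were higher by 2-fold or more in the library labelled Med23 KO than in 10-month Foxp3Cre Tregs and 3 lower (median log2 ratio 0.24). These are 37.5% and 18.8% of the list, against 28.6% and 34.9% of all measured genes. In obese over lean Tregs 6 were higher and 0 lower (median 0.38), and the share higher, 37.5%, was near the 34.0% of all genes. Over LN Tregs the counts were 2 higher and 1 lower in obese Tregs (median 0.17, with 12.5% higher against 41.8% of all genes), 1 higher and 6 lower in lean Tregs (median -0.08, with 37.5% lower against 32.1%), and 3 higher and 1 lower in 10-month Foxp3Cre Tregs (median 0.13, with 18.8% higher against 34.7%). Irf9, a transcription factor of the response to type I interferon, had 119.0 CPM in the library labelled Med23 KO, 32.5 in 10-month Foxp3Cre, 93.5 in obese, 16.0 in lean and 85.2 in LN Tregs. Nlrc5, the transactivator of MHC class I genes, had 484.7, 179.4, 260.8 and 251.6 CPM in those adipose libraries and 214.5 CPM in LN Tregs. The 3 genes lower in the library labelled Med23 KO than in 10-month Foxp3Cre Tregs were Pdia3, Ifngr1 and B2m. Pdia3 had 138.4 CPM in the former and 437.3 CPM in the latter, Ifngr1 978.0 and 2817 CPM, and B2m 10400 and 17290 CPM. Irf9 was highest in the library labelled Med23 KO and lowest in lean Tregs, whereas the immunoproteasome genes were highest in LN Tregs.

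Of 15 partner and assembly genes outside the naming rule, 1 was higher by 2-fold or more and 2 lower in the library labelled Med23 KO than in 10-month Foxp3Cre Tregs (median -0.07), being 6.67% and 13.3%, against 28.6% and 34.9% of all genes. In lean over LN Tregs 4 were higher and 2 lower (median 0.17), being 26.7% and 13.3%, against 37.6% and 32.1% of all genes. Pomp, the maturation factor of the 20S core, followed the core genes in being highest in LN Tregs, with 98.2 CPM in the library labelled Med23 KO, 71.7 in 10-month Foxp3Cre, 183.3 in obese, 207.6 in lean and 419.7 in LN Tregs. Nfe2l1, the transcription factor that raises proteasome genes when activity is short, was listed at 0 in the library labelled Med23 KO and had 18.8 CPM in 10-month Foxp3Cre, 5.603 in obese, 14.2 in lean and 3.10 in LN Tregs. The part of Nfe2l1 in the member values was not tested. Of 14 genes of ubiquitin supply and shuttling, 2 were higher and 3 lower in the library labelled Med23 KO than in 10-month Foxp3Cre Tregs (median -0.21), being 14.3% and 21.4%, both below the shares of all genes. In lean over LN Tregs 4 were higher and 5 lower (median 0.10), being 28.6% and 35.7%, against 37.6% and 32.1% of all genes.

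Near-identical copies limit some members. Over at least 250 bases at 95% identity or more, 10 of 50 members had another gene's transcript like theirs, being Psma3, Psma4, Psma5, Psmb3, Psmb5, Psmb6, Psmc1, Psmd2, Psme2 and Psme2b. Exons of 15 members overlap another gene. The 40 members without a copy summed to 3597 CPM in the library labelled Med23 KO, 4670 in 10-month Foxp3Cre, 4554 in obese, 4278 in lean and 8632 in LN Tregs, so the LN excess was present without the members that have copies. In the authors' deposited tables, whose marks compare single libraries, 21 of 48 members were marked in the library labelled Med23 KO over 10-month Foxp3Cre (3 higher and 18 lower, against 40.8% of all genes marked), 28 of 49 in obese over LN Tregs (3 higher and 25 lower, against 41.8%) and 34 of 49 in lean over LN Tregs (3 higher and 31 lower, against 53.2%).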

How the data were processed

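Per the labels' protocols, Treg RNA was extracted with Trizol and 5 libraries in 5 groups were made with the TruSeq kit of Illumina. Bowtie2 2.0.6, TopHat2 2.0.9 and the mm8 build are named in the submitters' processing notes, while the counter, annotation, strand setting and scaling were not given in the sources used here. The authors deposited 3 tables of 2 libraries each. The values deposited by the authors are, per Ensembl gene ID, a scaled read count (the signal used here), the log2 ratio of the pair, its p-value and q-value, and a mark. Dividing deposited values by a step found for each library gave whole reads, with a tolerance of 0.01 read. No count model was fitted, because values under 1 are listed as 0 and each group has 1 library. IDs listed as NA were taken as 0.

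The members and gene lists were chosen with earlier results of these data known. Symbols, exon lengths and transcripts came from GENCODE M21, and promoters from RefSeq. Ratios are log2((value + 1)/(value + 1)), on the deposited scale within a table and in CPM across tables, and genes reaching 1 in either library counted as measured. The count threshold was 2-fold, and 6 comparisons were made. Folds of single genes have no pseudocount and carry exact Clopper-Pearson bounds for the split of the summed reads; intervals of shifts use the Poisson approximation on the log scale. Reads were not collapsed to molecules, and the intervals hold counting error alone. Every member was counted. Values in each library were given for the catalytic subunits, for PA28 and for members past 2-fold that the results turn on, with further members in ranges and counts. Near-identical transcripts were searched with BLAST 2.17.0. The software was scipy 1.17.1, numpy 2.4.6, matplotlib 3.10.9 and pandas 2.3.3 under Python 3.11.15, tested on simulated data. The alternatives were pseudocounts of 0.1 and 5, a mean of at least 20, other scalings, centring, other denominators, and leaving out members with near-identical copies. A withheld item is not reported here.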

Additional observations from a re-analysis of the deposited data

Results flagged for a closer look

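3 members lay on opposite sides of LN Tregs in the obese and the lean library, with both counting intervals away from a ratio of 1 on the deposited scale. How many of all genes meet the same rule was not counted, so no background stands beside this number. Psmf1, the PI31 inhibitor, had a log2 ratio over LN Tregs of 0.44 in obese and -1.66 in lean Tregs. Psmd13, a lid subunit whose exons overlap Sirt3, had -0.50 in obese and 0.59 in lean Tregs. Psmd12, another lid subunit, had -0.24 in obese and 0.65 in lean Tregs. The difference between obese and lean was not tested, and both ratios share the LN library. With columns rescaled, a setting added after the data were seen, Psmf1 and Psmd13 kept both intervals away from 1. Psmd12 then had 65.4 CPM in obese and 119.7 CPM in lean against 68.8 CPM in LN Tregs, and its obese over LN ratio of 0.95 (0.844 to 1.07) spanned 1, so it lay apart on the lean side alone.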

How the results depend on the processing

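Of 114 results recomputed under another setting, 96 stayed within the counting interval of the value (for a median, of the median gene) or within 1.5 times a count, 16 moved further and 2 changed sign. Pseudocounts of 0.1 and 5, and scaling obese and lean Tregs through the LN library, moved none. Rescaling columns gave a median of -0.84 for obese over LN Tregs, and for the library labelled Med23 KO over 10-month Foxp3Cre a median of -0.51 and 5 higher members. With a mean of at least 20, higher members numbered 5 in obese over lean Tregs and 1 in the library labelled Med23 KO. Centring gave a median of 0.56 for 10-month over lean Tregs. Without members that have a near-identical copy, chosen after the data were seen, 1 member was higher in lean and 1 in obese over LN Tregs, 2 were lower in 10-month over lean Tregs, and the median for the library labelled Med23 KO was -0.66. As the mean of 3 pairs, the immunoproteasome shift was -0.083 in obese over lean (a change of sign), 1.34 in the library labelled Med23 KO, -0.28 in 10-month over lean and -1.27 in 10-month over LN Tregs. Against all 14 constitutive 20S genes, also chosen after the data were seen, it was -0.50 in obese over LN, 0.60 in obese over lean, 0.31 in 10-month over lean (a change of sign) and -0.78 in 10-month over LN Tregs. The cause was not tested in any of these; settings that drop members or change the denominator use fewer or other genes.

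No paired analysis was possible because each group has 1 library and no replicate to leave out. No library is shared between the 10-month and 4-month tables, so scaling through one was not run there. The library labelled Med23 KO has the fewest reads and so the widest intervals.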
